A study of Mus musculus with 2 samples.

Results

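The genes described here are 10 genes known from alveolar macrophages, the macrophages that live on the air side of the lung: Chil3, Plet1, Marco, Pparg, Atp6v0d2, Cidec, Abcg1, Ear1, Ear2 and Ear10. They were chosen by symbol, with every probe annotated to them taken, and with earlier results of these data known. Of these 10 genes, 8 had a probe, 9 probes in all, out of 19532 genes measured by 32664 named probes. No probe was annotated to Ear1 or Ear2, so these 2 genes are not analysed here. The study compared cells of mouse lung that had not been cultured or treated, labelled with Cy3, with mouse embryonic fibroblasts (MEF), fibroblasts grown from embryos and kept in medium with fetal bovine serum, labelled with Cy5. The 2 lung samples were put with MEF RNA on 1 Agilent array apiece, and MEF was measured only as the other channel of these arrays. The labels give no strain, age or genotype, and do not say whether the lung samples came from separate animals or whether both arrays received the same MEF culture. The dyes were not swapped, so a dye effect on a gene cannot be told apart from a difference between lung and MEF.

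Alveolar macrophages take up inhaled particles and bacteria and break down used surfactant, which loads them with lipid. In mice, GM-CSF from the lung epithelium induces the nuclear receptor gene Pparg in their precursors, and Pparg and its target genes then shape the mature cell. Many of the genes are also used elsewhere in the body: Pparg and Cidec in fat cells, Atp6v0d2 in osteoclasts, Plet1 in epithelia and the Ear ribonucleases in eosinophils.

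Values are log2 ratios of lung over MEF, so 1 is 2-fold higher in lung and a negative value is higher in MEF. The table does not state this direction. It is likely, because the submitters describe lung as compared with MEF and because all 11 measured genes of a list of surfactant, club cell and other lung epithelial genes were above 0 on both arrays. Agilent's software by convention divides Cy5 by Cy3, the other way round. The base of the logarithm is not stated either and was read as 2. The median log2 ratio of all genes was -0.21. As a measure of how far ratios spread where little transcript is likely, the central 95% of 1046 olfactory and vomeronasal receptor genes was taken and is called the receptor range. Its limits were -1.39 and 1.22 for lung replicate 1, and -1.45 and 1.23 for the other array.

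The ribonuclease genes belong to a family of near-identical copies, and the chitinase-like genes Chil3 and Chil4 are neighbours of the same kind. The stretches before their start sites are shown because they show how alike the copies are there, including Ear1 and Ear2, which had no probe. Each runs over the 250 bases before the RefSeq start (build GRCm38.p6), 5′ to 3′ on the gene's strand, and capitals mark each match to TTGCNNAA, the core letters bound by C/EBP factors, on either strand.
Ear10 (chr14:43923597-43923846, minus strand): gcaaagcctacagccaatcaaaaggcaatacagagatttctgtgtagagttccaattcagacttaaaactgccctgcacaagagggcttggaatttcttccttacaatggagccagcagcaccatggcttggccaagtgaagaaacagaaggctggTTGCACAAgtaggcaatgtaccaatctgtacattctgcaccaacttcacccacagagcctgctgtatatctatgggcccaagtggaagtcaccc
Ear1 (chr14:43819640-43819889, minus strand): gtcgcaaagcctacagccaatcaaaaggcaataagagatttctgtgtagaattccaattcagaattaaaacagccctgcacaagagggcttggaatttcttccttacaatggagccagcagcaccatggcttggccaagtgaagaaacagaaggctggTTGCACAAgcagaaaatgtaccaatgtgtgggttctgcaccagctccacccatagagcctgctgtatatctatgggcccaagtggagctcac
Ear2 (chr14:44102404-44102653, plus strand): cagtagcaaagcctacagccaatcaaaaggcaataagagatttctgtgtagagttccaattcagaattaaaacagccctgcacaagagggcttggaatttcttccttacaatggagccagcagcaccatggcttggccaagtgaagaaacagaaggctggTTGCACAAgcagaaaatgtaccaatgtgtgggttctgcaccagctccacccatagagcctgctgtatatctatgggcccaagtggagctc
Ear6 (chr14:51853518-51853767, plus strand): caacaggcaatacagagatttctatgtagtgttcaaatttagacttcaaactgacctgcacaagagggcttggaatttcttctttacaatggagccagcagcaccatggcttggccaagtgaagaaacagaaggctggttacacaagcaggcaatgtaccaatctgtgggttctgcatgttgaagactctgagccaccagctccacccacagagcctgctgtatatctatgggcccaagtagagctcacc
Chil3 (chr3:106167565-106167814, minus strand): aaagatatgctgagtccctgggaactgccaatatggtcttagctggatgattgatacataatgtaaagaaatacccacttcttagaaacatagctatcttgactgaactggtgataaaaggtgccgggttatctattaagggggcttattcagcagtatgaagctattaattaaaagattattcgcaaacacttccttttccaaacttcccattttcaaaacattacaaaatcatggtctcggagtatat
Chil4 (chr3:106219480-106219729, minus strand): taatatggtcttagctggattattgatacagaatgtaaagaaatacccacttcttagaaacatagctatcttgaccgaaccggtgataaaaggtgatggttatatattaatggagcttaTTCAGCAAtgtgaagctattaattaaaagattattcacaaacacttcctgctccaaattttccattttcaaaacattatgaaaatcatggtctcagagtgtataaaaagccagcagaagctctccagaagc
Ear1 and Ear2 were identical at 246 of 248 overlapping positions (99.2%). Ear10 was identical to Ear1 at 93.5% and to Ear2 at 93.9% of positions, and to Ear6 at 86.0%. Chil3 and Chil4 were identical at 90.1%. These stretches lie before the transcripts, so their identity does not measure how alike the transcripts are. The probe sequences were not used here, so which of these copies each probe reads was not tested.

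The Ear10, Ear1 and Ear2 stretches each held TTGCNNAA once, and the Ear6 and Chil3 stretches held none. Of the 10 genes, 8 were in the promoter table, with 11 start sites, and Abcg1 and Atp6v0d2 were not. TTGCNNAA lay before 6 of these 11 starts (Ear1, Ear2, Ear10, Plet1, and 1 start each of Cidec and Pparg), against 9.56% of all 32851 promoters. The 3 Ear stretches are near copies and do not count separately. GAGGAA, the core bound by the macrophage factor PU.1, lay before 2 of the 11 (Marco and 1 start of Pparg), against 23.3% of all promoters. The direct repeat bound by PPAR with RXR, searched in its exact form only, lay before 0 of the 11, against 0.0335% of all. Only 11 of all 32851 promoters held that form, so 0 was likely for any small set of starts. Looser forms were not searched, so this count cannot show whether these genes lack the repeat. Both strands were searched, and a match is a description of letters and not of binding.

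All 8 measured genes stood higher in lung on both arrays, and over a wide range: from 2.00-fold for Pparg to 616-fold for Ear10. Each was at least 2-fold higher on both arrays, as were 17.1% of all genes, and all 8 were above 0 on both arrays, as were 38.5% of all genes. On both arrays 7 of the 8 exceeded the receptor range, as did 14.6% of all genes, and 0 lay below it, against 8.78% of all genes. The genes were chosen with this contrast known, so these counts are a description and were not tested. The median of their 8 mean log2 ratios was 5.07, while that of all genes was -0.21. In bulk RNA, more cells of a type and more of a transcript per cell cannot be told apart. A ratio also gives no level, so a high one may come from a high signal in lung or a low one in MEF, and the order below is an order of ratios.

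**Figure D1:**
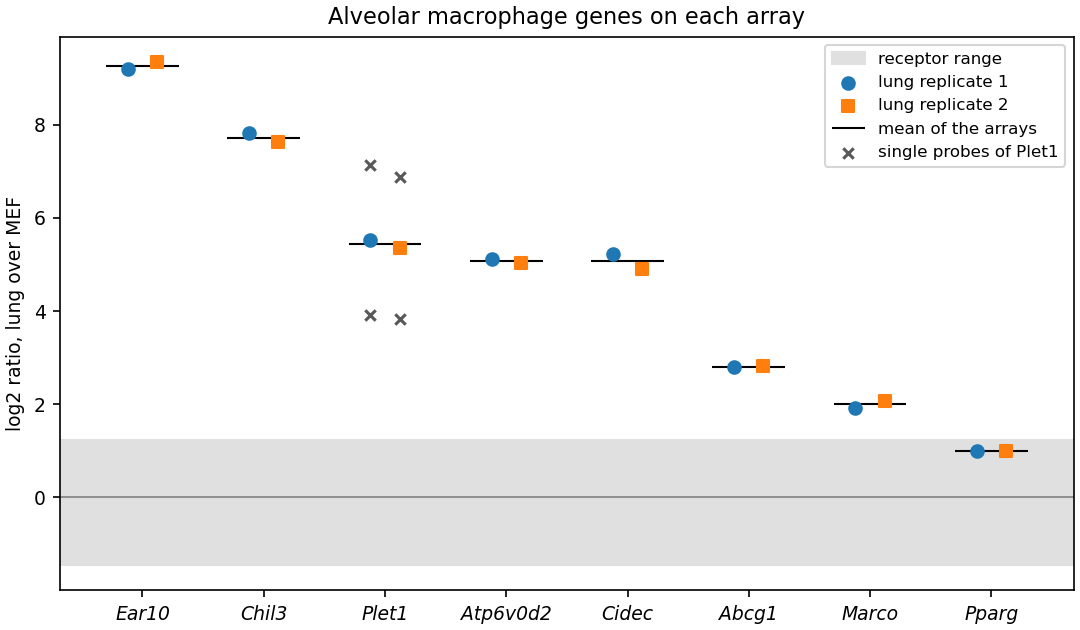
Log2 ratio of lung over MEF (vertical axis) of the 8 measured alveolar macrophage genes on lung replicate 1 (circles) and lung replicate 2 (squares), with the mean of the arrays as a line, the single probes of Plet1 as crosses and the receptor range in grey. The genes run from 9.27 for Ear10 to 1.00 for Pparg, which alone lies inside the grey band.

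Ear10, an eosinophil-associated ribonuclease that alveolar macrophages of mice also make, had log2 ratios of 9.19 on lung replicate 1 and 9.35 on lung replicate 2. Its mean of 9.27 ± 0.11 (SD, n = 2) was the third highest of all 19532 genes. Both arrays put it above every other gene of the set, and with Ear1 and Ear2 unmeasured its probe stands for the near-identical copies only as far as it reads them.

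Chil3, a secreted chitinase-like protein also called Ym1, had log2 ratios of 7.82 and 7.63 on lung replicates 1 and 2. The mean was 7.72 ± 0.14 (SD, n = 2), or 211-fold, and ranked 18 among all genes. Chil3 is made by alveolar macrophages and also by neutrophils.

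Plet1, a surface protein of alveolar macrophages and of some epithelia, had gene means of 5.53 and 5.36 on the 2 arrays (5.44 ± 0.12, SD, n = 2). Its 2 probes differed far more than the arrays did. The probe A_51_P131561 gave 7.13 on lung replicate 1 and 6.88 on replicate 2, and A_52_P506995 gave 3.92 and 3.84. Plet1os, a transcript from the opposite strand that was looked up after the values of Plet1 were known, had -0.31 on lung replicate 1 and 0.30 on lung replicate 2, inside the receptor range.

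Atp6v0d2, an isoform of a membrane-sector subunit of the vacuolar proton pump that acidifies lysosomes, had log2 ratios of 5.12 and 5.02 on lung replicates 1 and 2. Its mean was 5.07 ± 0.07 (SD, n = 2), or 33.6-fold. Cidec, a protein that fuses and enlarges lipid droplets, had 5.22 on lung replicate 1 and 4.91 on lung replicate 2, with a mean of 5.06 ± 0.21 (SD, n = 2). The Atp6v0d2 values lay within those of Cidec, so these neighbours in the order did not differ beyond their spread, whereas the gene values of each other adjacent pair did not overlap. The place of Plet1 depends on its probe: one lay above both of these genes and the other, at 3.92 and 3.84, below both.

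Abcg1, which exports cholesterol from macrophages, had log2 ratios of 2.80 and 2.82 on lung replicates 1 and 2 (2.81 ± 0.02, SD, n = 2), or 7.01-fold. Marco, a scavenger receptor for bacteria and particles, had 1.92 on lung replicate 1 and 2.08 on lung replicate 2 (2.00 ± 0.11, SD, n = 2), or 4.0-fold. These genes were well below the 5 highest, whose gene values were each over 16-fold higher in lung on both arrays. For Plet1 this held for the mean of its probes but not for A_52_P506995, at 3.92 and 3.84.

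Pparg, the nuclear receptor that directs alveolar macrophage maturation, had a log2 ratio of 1.00 on both arrays. Its arrays differed by 0.0003, less than those of all but 0.379% of genes. It met the 2-fold mark by less than 0.001 and lay inside the receptor range, so it is counted as higher by the first measure and not by the second. Of all genes, 81.9% had a lower mean.

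The absolute difference between the arrays ran from 0.0003 for Pparg to 0.30 for Cidec with a median of 0.16, while its median over all genes was 0.08. Lung replicate 1 was the higher for 5 genes and lung replicate 2 for 3. The spread between genes was much wider, with 8.27 between the highest and the lowest mean on the log2 scale.

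**Figure D2:**
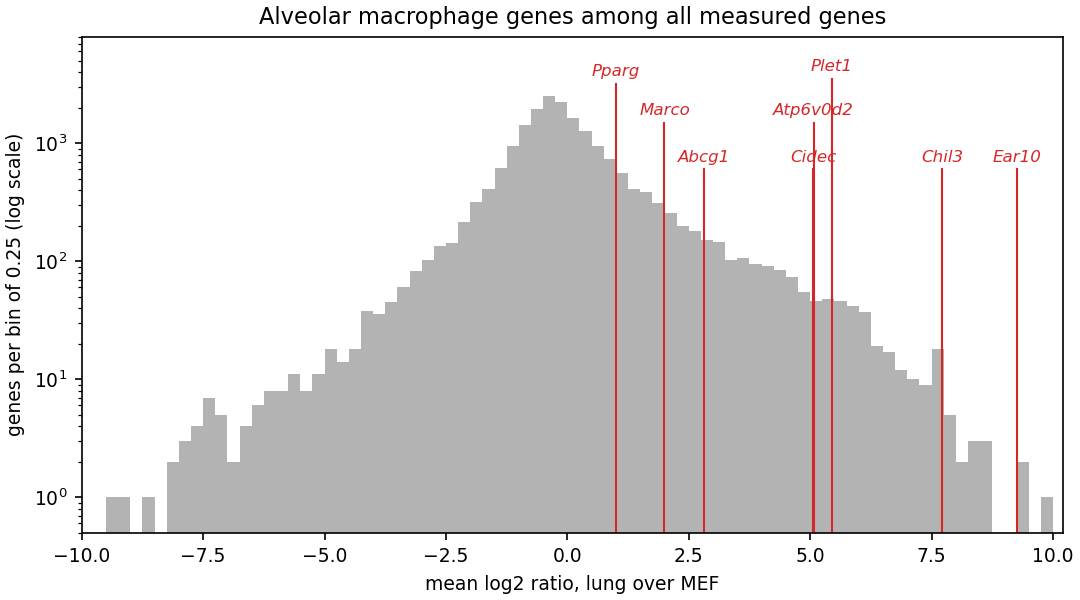
Number of genes (vertical axis, log scale) by mean log2 ratio of lung over MEF (horizontal axis, bins of 0.25) for all 19532 genes, with the 8 measured alveolar macrophage genes as red lines. Ear10 and Chil3 lie in the far right tail, ranked 3 and 18, and Pparg lies on the right shoulder of the main peak, ranked 3528.

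As a description of likeness, the genes outside the set with the smallest Euclidean distance over the 2 log2 ratios were listed for the 3 highest members. For Ear10 they were Il18r1 (distance 0.65) and Ces1d (0.78). For Chil3 they were Slc6a2 (0.04) and Sftpd (0.04), and for Plet1 Ighv1-17 (0.02) and Hc (0.04). These distances rest on 2 arrays only.

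The relatives of Ear10 were also mostly higher in lung. For genes outside the set, higher and lower are calls of limma's moderated test against 0 at an adjusted p below 0.05 (Benjamini-Hochberg over all genes), by which 32.6% of all genes were higher and 43.6% lower. Centring the arrays on the median of all genes raised every mean by 0.18 on the log2 scale, and 38.4% of genes were then higher and 36.5% lower. Centring on the median of the receptor genes raised it by 0.42, with 46.7% higher and 26.7% lower, so the balance of calls turns with the scaling and each list's counts are to be read against the same scaling. Of 11 measured relatives in the ribonuclease A family, 8 were higher, 2 lower and 1 neither, with a median log2 ratio of 1.83. The counts were 8 higher and 1 lower with all-gene centring, and 9 and 0 with receptor centring. Ear6 had 6.28 and 6.42 on lung replicates 1 and 2, and Ear3 had 3.98 and 3.57. Ear10 lay above Ear6 by 2.92 ± 0.01 on the log2 scale (SD, n = 2). Rnase6, an antimicrobial ribonuclease of myeloid cells, was at 5.71, and Ang2, Ang3, Ang, Ang4 and Rnase4 were between 1.46 and 2.54. Rnase1 was at -0.06. Rnase10 (-0.25) and Rnase9 (-0.62) were lower inside the receptor range, and neither call remained with the arrays centred on the receptor genes. The family call with the highest adjusted p stood at 0.0278 by limma with Benjamini-Hochberg adjustment.

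The chitinase family split. Chia1, the acidic chitinase of mammals, was higher at 6.17 ± 0.10, with its 2 probes at 4.30 and 8.04, Chil4 at 5.20 ± 0.02 and Chil1 at 4.46 ± 0.004 (SD, n = 2 each). Chil3 exceeded Chil4 by 2.63 on lung replicate 1 and by 2.41 on lung replicate 2. Chit1, the chitinase of activated macrophages in humans, was lower at -1.06, Chid1 at -1.47 and Ctbs at -0.47. Chil3 lay above the mean of Chia1 but below the higher of its probes. The call of Ctbs was lost with the arrays centred on the receptor genes. These 3 lower genes all lay inside the receptor range on at least 1 array, and the 3 higher ones lay above it on both.

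Within the proton pump, Atp6v0d2 had much the highest ratio of the measured membrane-sector genes. Its paralog Atp6v0d1, the subunit isoform of most cells, had -1.15 on lung replicate 1 and -1.14 on lung replicate 2, which put Atp6v0d2 above it by 6.22 ± 0.07 (SD, n = 2). Of 10 measured pump genes besides Atp6v0d2, 4 were higher, 5 lower and 1 neither, against 32.6% higher and 43.6% lower of all genes. The median of the 10 was -0.08. With all-gene centring 5 were higher and 2 lower (median 0.10), and with receptor centring 6 and 2 (median 0.33). Atp6v0a4 was the only one of the 10 above the receptor range, at 1.42 and 2.22, with its probes at 0.77 and 2.87. Atp6v0e (0.75), Atp6v0a1 (0.74) and Atp6v0e2 (0.26) were higher inside it. The probes of Atp6v0a1 disagreed, at -0.76, -0.0035 and 2.99, as did those of Atp6v0e2, at -0.18 and 0.71. Atp6v0b was at 0.04, not called, but higher under both centrings. Atp6ap1 was lower at -0.94. Tcirg1 (-0.21), Atp6v0a2 (-0.28) and Atp6ap2 (-0.37) were called lower, lost that call under both centrings and lay above 0 with receptor centring, where Tcirg1 was called higher.

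Cidec and Cidea, the relatives that act on lipid droplets in fat cells, had nearly the same ratio. Cidea had 4.96 on lung replicate 1 and 5.32 on replicate 2, and Cidec minus Cidea was 0.26 on lung replicate 1 and -0.41 on lung replicate 2, so their order changed between arrays. Cideb, the relative of liver cells, was at 0.01 ± 0.07 (SD, n = 2). Of 5 relatives of Abcg1, Abcg3 (1.68) and Abcg5 (0.79, and adjusted p = 0.0105 or lower for both by limma) were higher, and Abcg8 (-0.87), Abcg4 (-1.21) and Abcg2 (-1.51) were lower, with the call of Abcg8 lost under receptor centring. Abca1, the cholesterol exporter of another subfamily, was lower at -0.73 ± 0.02 (SD, n = 2), inside the receptor range. Abcg1 exceeded Abca1 by 3.52 on lung replicate 1 and 3.57 on lung replicate 2.

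The scavenger receptors that resemble Marco in function went both ways. Of 12 measured, 4 were higher, 7 lower and 1 neither, against 32.6% higher and 43.6% lower of all genes, with a median of -0.25. This balance turned with the scaling: 5 were higher and 5 lower with all-gene centring (median -0.07), and 6 and 3 with receptor centring (median 0.17). Cd163, the haptoglobin-haemoglobin receptor of macrophages, was at 5.78 ± 0.19, the fatty acid receptor Cd36 at 4.69 ± 0.07, Olr1 at 3.23 and Cxcl16 at 1.68. Msr1, which like Marco is a class A scavenger receptor, had -3.86 on lung replicate 1 and -3.65 on lung replicate 2. Marco therefore stood above Msr1 by 5.75 ± 0.04 on the log2 scale (SD, n = 2). Scara3 was lower too, at -3.54. Stab1 was lower at -1.24 but inside the receptor range, with its probes at -0.41 and -2.07. Scarb1 was at 0.13, not called, and was higher under both centrings. Scara5 (-0.65), Colec12 (-0.54), Scarb2 (-0.32) and Stab2 (-0.18) were lower inside the receptor range, and none of these 4 calls remained with receptor centring, under which Stab2 was higher.

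**Figure D3:**
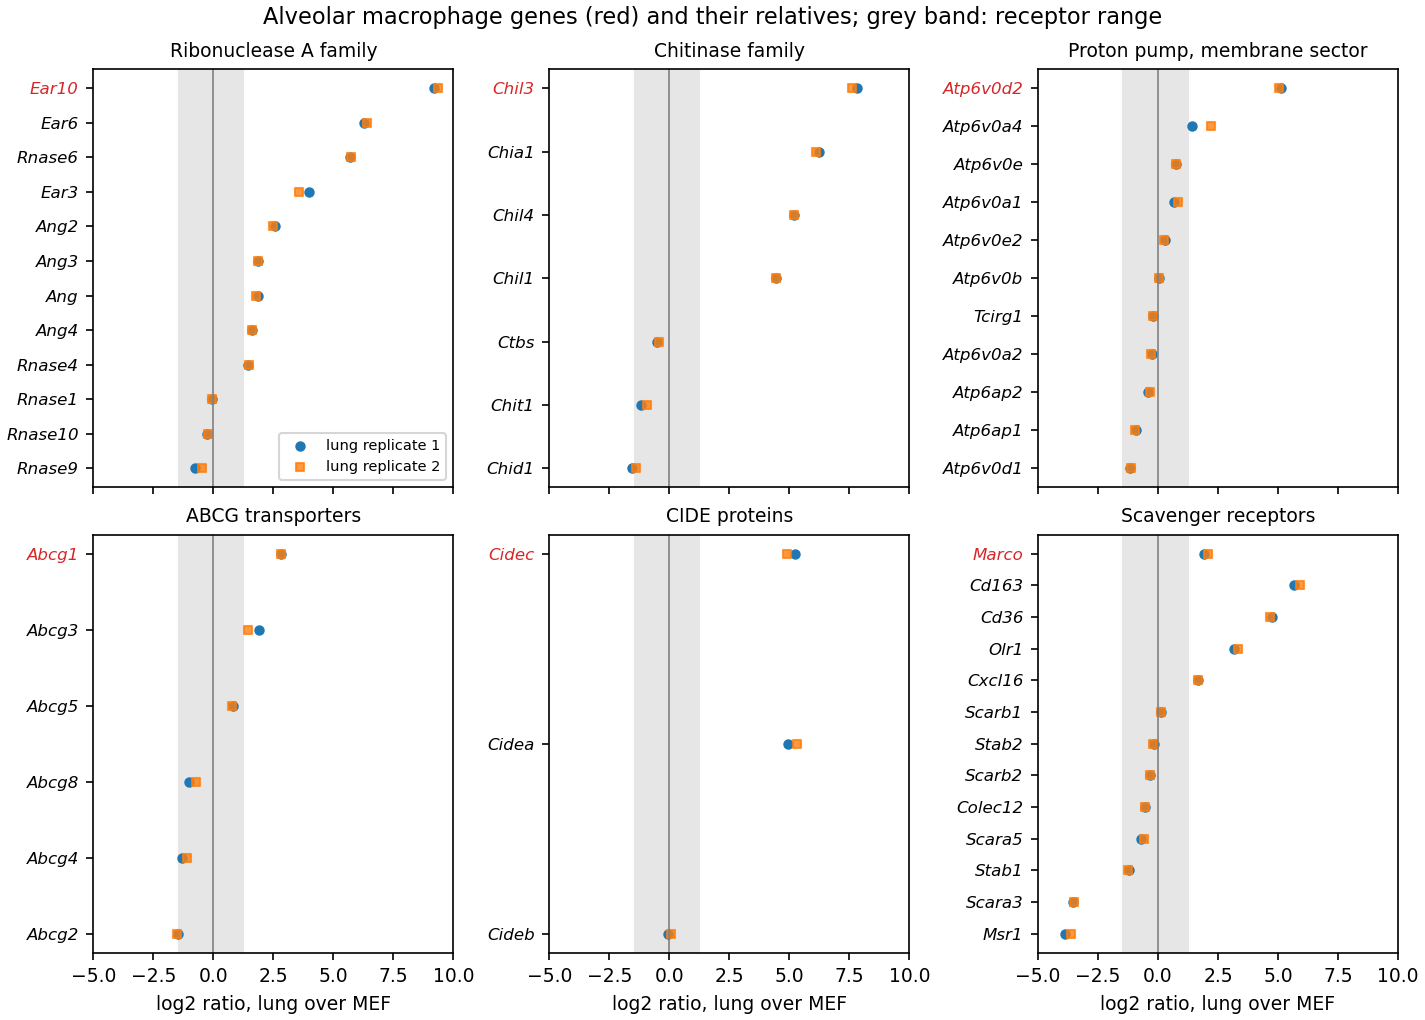
Log2 ratio of lung over MEF (horizontal axis) on lung replicate 1 (circles) and lung replicate 2 (squares) for 6 of the alveolar macrophage genes (red, top of each panel) and their measured relatives, with the receptor range in grey. By gene values, Ear10, Chil3, Atp6v0d2 and Abcg1 lie to the right of all their relatives, though 1 probe of Chia1, at 8.04, exceeded Chil3. Cidec lies level with Cidea, and Marco lies between Cxcl16 at 1.68 and Olr1 at 3.23.

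Other genes known from alveolar macrophages were mixed. Of 22 listed and measured, 16 were higher, 5 lower and 1 neither, with a median log2 ratio of 1.17. The counts were 17 and 5 with all-gene centring, and 17 and 2 with receptor centring. On both arrays 11 of the 22 lay above the receptor range, as did 14.6% of all genes. Below it on both arrays lay 1, against 8.78% of all genes. Fabp1, a fatty acid binding protein, was highest at 9.59 on lung replicate 1 and 7.34 on lung replicate 2, a gap of 2.25 between the arrays. Clec7a, the receptor for fungal beta-glucan, was at 5.59 ± 0.04, Krt19, a keratin also of lung epithelium, at 5.13 ± 0.07 and the chemokine Ccl6 at 4.12 ± 0.04 (SD, n = 2 each). Siglecf, the lectin by which alveolar macrophages are usually sorted, had 0.84 on lung replicate 1 and 1.24 on lung replicate 2. On lung replicate 1 it missed the 2-fold mark and lay inside the receptor range. Itgax, which encodes CD11c, was at 2.18, with its probes at 4.41 and -0.05. The mannose receptor Mrc1 was at 0.31, inside the receptor range. Fabp4, a target of Pparg, was at 1.38, and Fabp5 was at 0.62, inside the receptor range. Il1rn (-3.37), Clec4n (-1.21) and Ctsk (-0.52) were lower, and the call of Ctsk was lost with receptor centring. The highest adjusted p among the called genes of this list was 0.0256 by limma with Benjamini-Hochberg adjustment.

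Genes that macrophages of most tissues share were more often lower in lung than higher. Of 22 measured of 24 listed, 8 were higher and 14 lower, with a median of -0.63. With the arrays centred on all genes the counts were 8 and 11, and with receptor centring 10 and 11. Besides Cd163, the higher genes were led by lysozyme (Lyz2, 2.24), the protease Ctss (1.67) and the engulfment receptor Mertk (1.66). Beside Msr1, the complement genes C1qa (-2.95) and C1qb (-2.70) and Adgre1, which encodes a surface antigen used to stain mouse macrophages (-2.02 on lung replicate 1 and -1.98 on lung replicate 2), were lower and below the receptor range. The growth factor receptor gene Csf1r was at -0.25, and turned to 0.17 and called higher with receptor centring. By the 2-fold mark on both arrays, 10 of the 22 shared genes were lower, against 15.4% of all genes. By the same mark 5 of the 22 were higher, against 17.1% of all genes. The 8 alveolar macrophage genes and the shared genes were chosen with earlier results of these data known, so the difference between these lists was not tested. How far transcripts of macrophages in either RNA enter these ratios was not tested.

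Fat cell genes were mostly higher in lung, as were Cidec and Pparg. Of 12 measured of 14 listed, 11 were higher, 0 lower and 1 neither, with a median of 2.08, from 0.18 to 5.48. On both arrays 7 of the 12 lay above the receptor range, as did 14.6% of all genes. With all-gene centring 11 were higher and 0 lower, and with receptor centring 12 and 0. The hormone gene Adipoq had 5.85 on lung replicate 1 and 5.10 on lung replicate 2. Besides Cidea, Retn was at 2.93, the lipase gene Lipe at 2.69 and the lipid droplet coat gene Plin1 at 2.55. Slc2a4 (0.80) and Ucp1 (0.78) were higher inside the receptor range, and leptin (Lep, 0.18) was neither, but higher with receptor centring. The part of fat cells in the ratios of Cidec and Pparg was not tested.

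Genes of eosinophils other than the ribonucleases were higher in 4 of 7, lower in 1 and neither in 2, with a median of 1.55. Under each centring 5 were higher and 1 lower. The granule protein genes Prg2 (3.90 ± 0.06) and Prg3 (1.89 ± 0.33), the lipoxygenase gene Alox15 (3.15 ± 0.18) and the receptor gene Il5ra (1.55 ± 0.21; SD, n = 2 each) were higher. Epx, the eosinophil peroxidase gene, had -0.07 on lung replicate 1 and -0.28 on lung replicate 2. Gata1 was at 0.18, not called, but higher under both centrings. The chemokine receptor gene Ccr3 was lower at -1.05, inside the receptor range, with its probes at -1.72 and -0.38. The 4 genes called higher without centring lay above the receptor range and all were below Ear10 and Ear6. The part of eosinophils in the ratio of Ear10 was not tested.

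Among genes of the signals that induce Pparg in alveolar macrophages, the ligand gene had the highest ratio. Csf2, which encodes GM-CSF, had 5.97 on lung replicate 1 and 5.47 on lung replicate 2. Csf2ra, the alpha chain of its receptor, was higher at 1.70 ± 0.02 (SD, n = 2). Csf2rb, the common beta chain that GM-CSF uses, named here after its values were seen, was at 0.17 ± 0.07 (SD, n = 2), with its 3 probes between -1.11 and 1.65, and was not called (adjusted p = 0.0672 by limma). Csf2rb2, the beta chain that serves IL-3 in mice, was higher at 0.76 ± 0.03 (SD, n = 2). Of the 15 genes listed for GM-CSF, TGF-beta and their transcription factors, 7 were higher, 3 lower and 5 neither, with a median of 0.17. With all-gene centring 10 were higher and 3 lower (median 0.35), and with receptor centring 11 and 2 (median 0.59), Csf2rb being higher under both. Bach2, a transcriptional repressor, was higher at 1.16. Spi1, which encodes PU.1, was lower at -1.33, Tgfb1 at -0.997 and Tgfbr2 at -0.49, all 3 inside the receptor range. The probes of Tgfbr2 disagreed, at -1.71, -0.14 and 0.40, and its call was lost with receptor centring.

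Partners and targets in lipid handling split, without centring at shares near those of all genes. Of 18 measured of 20 listed, 6 were higher, 7 lower and 5 neither, against 32.6% higher and 43.6% lower of all genes. The median of the 18 was 0.01. With the arrays centred on all genes 9 were higher and 6 lower, against 38.4% and 36.5% of all genes. With receptor centring 12 were higher and 5 lower, against 46.7% and 26.7%. Nr1h3, the sterol receptor LXR alpha that controls Abcg1 and Abca1, had 3.48 on lung replicate 1 and 3.25 on lung replicate 2. Its target Abcg1 was higher in lung, above the receptor range. The other target, Abca1, was called lower but lay inside that range. Among the PPAR genes, Ppara was at 2.47 ± 0.05 and Ppard at -1.05 ± 0.10 (SD, n = 2 each), with Pparg between them. Besides Cd36, the phospholipid transfer protein gene Pltp was higher at 1.64, and Rxrb (-0.95) and Apoe (-0.81) were lower. The probes of Rxrb were at -1.66 and -0.25. Of the 18 genes, 0 lay below the receptor range on both arrays.

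**Figure D4:**
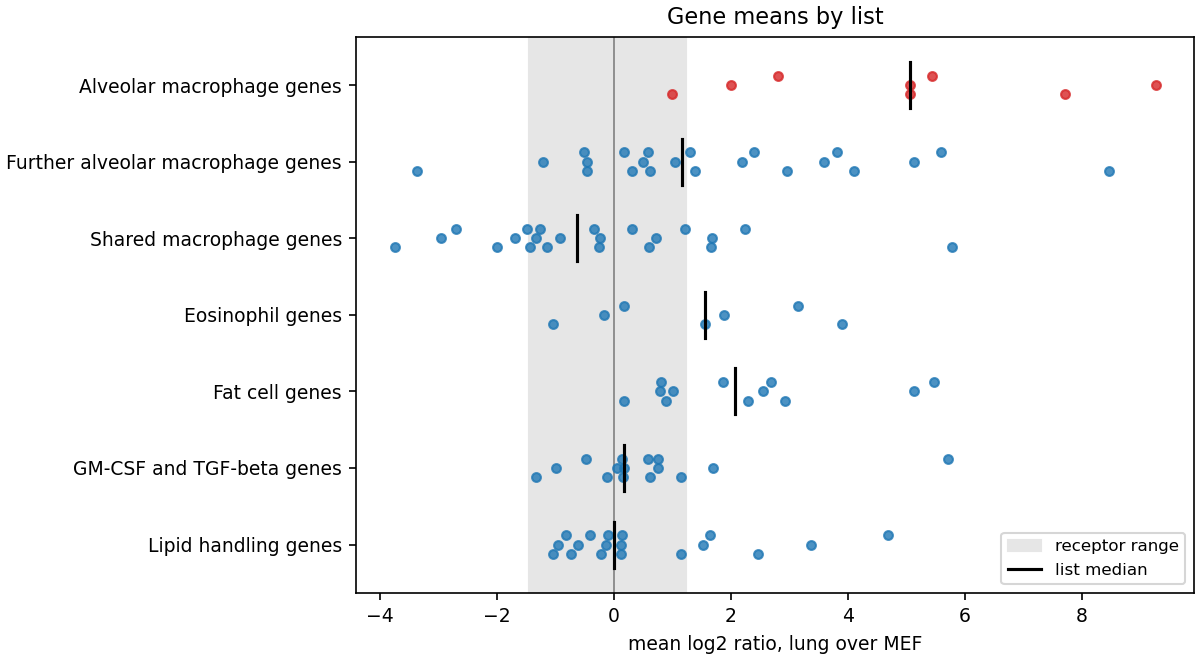
Mean log2 ratio of lung over MEF (horizontal axis) of each measured gene in 7 lists, with the alveolar macrophage genes in red, the other lists in blue, each list's median as a black line and the receptor range in grey. The median is 5.07 for the alveolar macrophage genes, 1.17 for further genes of these cells, -0.63 for shared macrophage genes, 1.55 for eosinophil genes and 2.08 for fat cell genes.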

How the data were processed

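RNA of 2 uncultured mouse lung samples (Cy3) was hybridised against MEF RNA (Cy5) on 2 two-colour Agilent arrays, per the labels. The authors deposited 1 table of log ratios, read here as log2, for 41174 probes. Agilent Feature Extraction is named per the submitters' processing notes. How it treated background and dyes, and its version, was not given in the sources used here. Median values over all probes were -0.28 (lung replicate 1) and -0.14 (lung replicate 2), so arrays were not centred. Intensities and flags were not used here, so which ratios rest on dim or saturated spots is unknown. Precision is limited by the number of arrays.

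Probes were named from the platform annotation: 32664 carried 1 symbol, 45 several and 8465 none, and Entrez identifiers of 32524 were in a RefSeq gene table. For each array, a gene's value is the mean of its probes. All 19532 genes were fitted with limma 3.58.1 in R 4.3.3 (intercept only, eBayes, two-sided, Benjamini-Hochberg, threshold 0.05), with 1 residual and 1.21 prior degrees of freedom. The fit was also run on simulated data with a spread drawn from this same fit. That run checks the code and cannot show whether the calls hold. The p-values rest on the spread between 2 samples, which may be technical, and leave out that between MEF cultures. A dye effect that repeats on both arrays enters the calls as a difference between lung and MEF. Member genes got no test. The members and the 13 other lists were chosen with earlier results of these data known. Named were the members, all measured relatives, of each other list the 4 highest and 3 lowest genes with fixed markers, and the nearest genes of 3 members. Promoters come from RefSeq, GRCm38.p6, and were aligned with Biopython 1.88 (identity over overlapping positions, end gaps left out). Alternatives were the choice of probe, centring, the base of the logarithm, leaving out an array or the Ear genes, a test against a 2-fold change, a 2-fold count and leaving out 320 genes with discordant probes.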

Additional observations from a re-analysis of the deposited data

How the results depend on the processing

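The median log2 ratio of the measured alveolar macrophage genes (5.07) was 4.47 with the lowest probe of each gene, 5.25 with arrays centred on all genes, 5.48 with arrays centred on receptor genes and 7.31 if the table holds natural logarithms. Leaving out an array gave 4.97 to 5.17, with 8 genes at least 2-fold higher and 7 above the receptor range each time. Of all genes, 6366 were called higher and 8514 lower by the test against 0 without centring. Also without centring, a limma test against a 2-fold change called 2754 and 2242, and a 2-fold count on both arrays gave 3341 and 2999. All-gene centring called 7496 and 7128, and receptor centring 9120 and 5224. More genes were lower than higher only by the test against 0 without centring. Under the test against a 2-fold change, the genes called higher and lower were 10 and 2 of the further alveolar macrophage genes, 5 and 9 of the shared macrophage genes and 2 and 0 of the eosinophil genes, and 7 fat cell genes were higher. The 2-fold count gave 2 lower further alveolar macrophage genes, 5 higher shared macrophage genes and 7 higher fat cell genes, and both of these rules ask for larger ratios by construction. Receptor centring, a shift of all ratios, left 2 lower further alveolar macrophage genes. Each ratio already pairs a lung sample with MEF on the same array, and the test against 0 uses that pairing. No further pairing was possible because there is a single group of ratios. The limma calls could not be fitted without an array, since no residual degrees of freedom remain.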
